A study of Mus musculus with 17 samples.

Results

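The semaphorins, plexins and neuropilins were followed in astrocytes of the cortex and of 3 sensory thalamic nuclei. Their members were the 31 genes of this family named by symbol, 20 semaphorins, 9 plexins and 2 neuropilins, and all 31 were found among the 26556 genes of the count tables. Of these, 30 passed the filter on low counts and were tested in every comparison. The exception was *Sema3g*, a secreted semaphorin, with 20 counts over all 17 libraries.

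The libraries came from astrocytes of *Gfap::GFP* mice (strain FVB in the labels, FVB/N-Tg background in the methods of the study) at postnatal day 7 (P7). The cells were purified by FACS (sorting of single cells by their fluorescence) on the green fluorescent protein that this transgene expresses under a GFAP promoter. There were 4 libraries of primary somatosensory cortex (Ctx), 5 of the dorsolateral geniculate nucleus (dLG, visual), 4 of the ventral posteromedial nucleus (VPM, somatosensory), and 4 of the ventral division of the medial geniculate nucleus (MGv, auditory). All groups carry the transgene, and each library pools 4 brains, so the spread between libraries is a spread between pools. Replicates are named by letter, and the 13 libraries of the nuclei are called the thalamus (Th). A cell enters such a library by its green fluorescence, whatever its type.

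Semaphorins are guidance cues. Those of class 3 are secreted, those of classes 4 to 6 are membrane proteins, and *Sema7a* is anchored to the membrane by a lipid. Plexins are their receptors and act on small GTPases that shape the actin cytoskeleton, and neuropilins, which have only a short cytoplasmic tail, bind most class 3 semaphorins and VEGF and pass the signal on through plexins of the A type. In the brain the family is best known for steering growing axons and migrating neurons, and glial cells also express many of its members.

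The starts of the genes that carry the main differences are shown first. RefSeq held a promoter entry (build GRCm38.p6) for 26 of the 31 members, and the 250 bases before the start overlapped no annotated exon in 14 of them. Printed below are 6 of those 14, chosen because 4 are plexins that were higher in MGv than in VPM (*Plxna3*, *Plxnb2*, *Plxnc1*, and *Plxnd1*), 1 is the neuropilin with the lowest p between regions (*Nrp1*), and 1 is the semaphorin that differed between the nuclei in the other direction (*Sema3d*). Capitals mark the GC box, GGGCGG on either strand (CCGCCC on the reverse strand), and each sequence runs 5′ to 3′ on the strand of the gene. Starts are those of RefSeq, and for *Nrp1* the GENCODE gene used for coordinates below starts earlier, at 128358604, so that its window lies inside that gene, between exons.
Plxna3 (chrX:74328816-74329065, plus strand): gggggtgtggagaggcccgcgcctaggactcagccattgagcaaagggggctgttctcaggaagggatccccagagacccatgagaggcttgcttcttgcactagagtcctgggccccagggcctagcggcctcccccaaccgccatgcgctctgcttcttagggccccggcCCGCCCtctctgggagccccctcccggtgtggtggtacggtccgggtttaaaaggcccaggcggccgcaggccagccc
Plxnb2 (chr15:89180789-89181038, minus strand): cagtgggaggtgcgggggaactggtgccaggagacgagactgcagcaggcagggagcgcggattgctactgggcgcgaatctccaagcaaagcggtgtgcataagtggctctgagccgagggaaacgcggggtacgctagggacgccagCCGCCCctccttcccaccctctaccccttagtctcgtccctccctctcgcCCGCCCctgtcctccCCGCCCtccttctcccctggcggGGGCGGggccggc
Plxnc1 (chr10:94944846-94945095, minus strand): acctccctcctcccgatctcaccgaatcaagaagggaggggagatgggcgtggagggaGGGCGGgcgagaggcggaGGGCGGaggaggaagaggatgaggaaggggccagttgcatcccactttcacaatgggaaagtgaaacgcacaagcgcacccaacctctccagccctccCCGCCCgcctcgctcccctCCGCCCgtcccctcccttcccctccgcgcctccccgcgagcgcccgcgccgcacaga
Plxnd1 (chr6:115995006-115995255, minus strand): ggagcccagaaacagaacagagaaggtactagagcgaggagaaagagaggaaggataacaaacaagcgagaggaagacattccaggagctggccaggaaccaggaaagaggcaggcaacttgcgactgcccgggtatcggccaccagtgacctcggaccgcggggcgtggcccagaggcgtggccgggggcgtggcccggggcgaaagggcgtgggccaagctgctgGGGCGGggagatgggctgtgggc
Nrp1 (chr8:128358823-128359072, plus strand): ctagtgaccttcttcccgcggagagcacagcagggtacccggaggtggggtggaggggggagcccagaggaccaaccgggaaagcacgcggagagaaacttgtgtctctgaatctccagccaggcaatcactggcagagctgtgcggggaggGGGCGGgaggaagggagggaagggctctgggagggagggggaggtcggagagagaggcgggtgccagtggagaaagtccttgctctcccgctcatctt
Sema3d (chr5:12382916-12383165, plus strand): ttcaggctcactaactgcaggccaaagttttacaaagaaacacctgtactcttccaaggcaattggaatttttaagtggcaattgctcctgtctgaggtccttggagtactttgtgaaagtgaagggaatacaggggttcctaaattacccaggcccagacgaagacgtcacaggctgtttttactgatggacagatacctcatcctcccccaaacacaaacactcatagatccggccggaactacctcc

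The GC box was found in 20 of the 26 member windows (76.9%), against 32.9% of 27025 RefSeq windows of the same length. The plexin windows above hold 1 (*Plxna3*, *Plxnd1*) or 4 (*Plxnb2*, *Plxnc1*) such boxes, *Nrp1* holds 1, and *Sema3d* none. The *Sema3d* window has 4 CpG dinucleotides and 46.8% G+C, and those of the 4 plexins have 12 to 22 CpG and 64.8% to 69.2% G+C. Over the 26 members the medians were 15.5 CpG and 64.6% G+C, against 6 CpG and 52% for all windows. Of 3 other motifs searched on both strands, the E-box CANNTG was in 12 of the 26 windows (66.0% of all), the TCF/LEF core CTTTGA in 2 (14.05% of all), and the homeobox motif TAATCC in none (6.38% of all). Matches of different motifs were counted separately where they overlapped. Such matches describe letters and are not sites of binding.

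The libraries held 18213687 to 50366363 counts on genes, and 3 counts correspond to 0.0596 to 0.165 CPM, the count scaled to a common library total. Levels below are CPM scaled by the trimmed mean of M values (TMM), and levels of different members are compared only per kb of exon. Marker sums add the CPM of their genes without scaling by length, and the lists differ in genes and lengths. No pair of libraries of a group agreed within sampling noise. The summed level of 8 astrocyte markers was 5315 to 14254 CPM in the libraries, that of 7 oligodendrocyte lineage markers was 2307 to 5808 CPM, and that of 10 neuron markers 762 to 2046 CPM. Sums of 6 microglia markers (6.68 to 91.8 CPM), 6 endothelial markers (2.54 to 45.6 CPM), and 6 mural and fibroblast markers (13.4 to 93.9 CPM) were far lower. In bulk libraries of this kind, fewer cells of a type and less RNA per cell cannot be told apart.

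Ligands headed the family by level per kb. The highest mean over the 17 libraries was that of *Sema6a*, a transmembrane semaphorin, at 22.7 CPM per kb, followed by *Sema5b* with 21.4 and *Sema6d* with 17.3. *Plxnb1*, a receptor of *Sema4d*, was the first receptor in this order with 13.3 CPM per kb, next to the membrane semaphorin *Sema4a* with 13.2. The secreted semaphorins were low except *Sema3d* at 4.599 CPM per kb. *Sema3a*, *Sema3b*, *Sema3c*, *Sema3e*, and *Sema3f* had means of 0.137 to 0.792 CPM per kb. *Sema3g* was over 3 counts in 3 libraries and at 0 in the other 14. Among the receptors, *Plxnd1* was the lowest plexin at 0.427 CPM per kb, and *Nrp1* (7.84) lay above *Nrp2* (0.963).

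**Figure D1:**
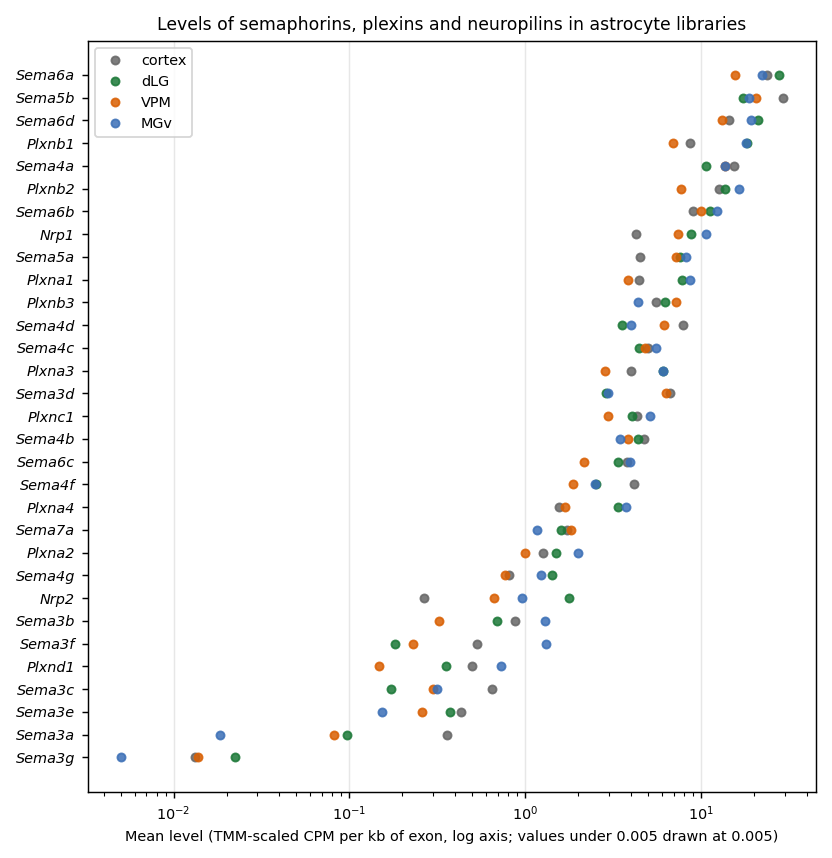
Mean level of the 31 members in each group, in TMM-scaled CPM per kb of exon on a log axis, with 1 point per group (Ctx n = 4, dLG n = 5, VPM n = 4, MGv n = 4 libraries) and genes ordered by their mean over all libraries. The points of *Nrp1* and *Nrp2* in cortex lie below those of every nucleus, and the VPM points of *Plxnb1* and *Plxnb2* lie below those of the other groups.

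The first comparison asked which members distinguish thalamic from cortical astrocytes. Both neuropilins and *Sema5a* were higher in the thalamus, and 4 semaphorins, *Sema5b*, *Sema4f*, *Sema4d*, and *Sema3a*, were lower. That is 7 of the 30 members tested at an adjusted p under 0.1 (edgeR quasi-likelihood test, Benjamini-Hochberg over 17856 genes), where 11.4% of all genes tested were called, 5.45% as higher and 5.93% as lower. No plexin was called (0 of 9, edgeR), although 2 of them, *Plxna1* and *Plxna4*, had an unadjusted p under 0.05, and DESeq2 called *Plxna4*. An edgeR fit that kept the 4 groups apart, with the 3 nuclei averaged against cortex, called both as higher in the thalamus. The log2 fold change there was 0.52 for *Plxna1* and 0.82 for *Plxna4* (adjusted p = 0.0904 and 0.0603). The median log2 fold change was -0.06 over the 30 members and 0.02 over all genes tested. The summed mural and fibroblast markers were 54.2 to 93.9 CPM in cortex and 13.4 to 42.0 CPM in the thalamus. Of these 6 genes, *Pdgfrb* and *Col1a2* were called as lower in the thalamus, and *Dcn*, at 0 in every cortical library, as higher (edgeR). *Pdgfrb* alone had a mean of 38.1 CPM in cortex and 2.84 CPM in the thalamus. The summed astrocyte markers were 11652 to 12577 CPM in cortex and 5315 to 14254 CPM in the thalamus. Without MGv c, whose *Gfap* alone was at 5519 CPM, the astrocyte sums of the thalamus were 5315 to 8313 CPM, all below cortex. The 8 genes did not move together. *Slc1a3*, *Aldoc*, and *Slc1a2* were called as lower in the thalamus and *S100b* as higher (edgeR), and 4 of the 8 had a positive log2 fold change. *Slc1a3* alone had a mean of 5227 CPM in cortex and 1586 CPM in the thalamus. Of the 10 neuron markers, 3 were called as higher in the thalamus and 1 as lower (edgeR). *Slc17a6*, a vesicular glutamate transporter of thalamic neurons, was 8.05-fold higher without overlap (adjusted p = 0.000193), the neurofilament genes *Nefm* and *Nefl* were 4.90- and 3.90-fold higher, and *Rbfox3* was 2.31-fold lower. The part of these cells in the differences of the members was not tested.

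Among the ligands, *Sema5a* and *Sema5b* are the 2 members of class 5, which carry thrombospondin repeats, and they went in opposite directions. *Sema5b* (ENSMUSG00000052133, GRCm38 chromosome 16, 35541145 to 35664732, plus strand) stood at 168, 205, 199 and 260.0 CPM in the cortical libraries, with thalamic values of 101 (lowest), 134 (median) and 171 (highest) CPM. It was 1.56-fold lower in the thalamus (log2 fold change -0.64 ± 0.13 SE, edgeR adjusted p = 0.00320), and 1 thalamic library, VPM c, lay within the cortical range. *Sema5a* (ENSMUSG00000022231, GRCm38 chromosome 15, 32244810 to 32696341, plus strand) was at 91.6, 77.1, 97.8 and 71.0 CPM in cortex and at 92.3 (lowest), 142 (median) and 189 (highest) CPM in the thalamus. It was 1.69-fold higher in the thalamus (log2 fold change 0.76 ± 0.18 SE, edgeR adjusted p = 0.0109), with 1 thalamic library, dLG d, inside the cortical range. Per kb of exon, *Sema5b* was thus 29.4 CPM in cortex and 18.9 in the thalamus, and *Sema5a* 4.52 and 7.65.

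*Sema4f* and *Sema4d* are transmembrane semaphorins of class 4, and *Sema4d* signals through *Plxnb1*. *Sema4f* had 19.7, 23.0, 19.3 and 26.3 CPM in the cortical libraries and 5.91 (lowest), 12.9 (median) and 16.4 (highest) CPM in the thalamus, with no overlap. The difference was 1.80-fold (log2 fold change -0.85 ± 0.20 SE, edgeR adjusted p = 0.0101), in a direction in which 3.09% of all genes tested had groups that did not overlap. For *Sema4d* the cortical values were 49.6, 63.8, 57.3 and 71.8 CPM. In dLG and MGv every library was lower, at 13.9 to 33.4 and 26.0 to 34.7 CPM, and the VPM libraries lay at 60.5, 22.5, 52.8 and 54.5 CPM, 3 of them within the cortical range. The fold change of *Sema4d* was -0.81 ± 0.25 SE (log2, edgeR adjusted p = 0.0572), and the call was lost without cortex b, c, or d (adjusted p 0.157, 0.106, and 0.217). VPM b, the exception among the VPM libraries, also had the lowest VPM sum of oligodendrocyte lineage markers, 2480 CPM against 4055 to 5808 in the other 3, and the part of that cell type in the level of *Sema4d* was not tested. Against dLG, *Sema4d* in VPM was at 0.77 ± 0.28 SE (log2, edgeR adjusted p = 0.118, and 0.0609 in DESeq2). Without VPM b it was called as higher in edgeR (1.01, adjusted p = 0.0355).

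*Sema3a* encodes a secreted ligand for *Nrp1* and repels many axons. It was at 5.33, 5.31, 4.35 and 5.02 CPM in cortex, 2.06, 0, 2.55, 1.74 and 0.403 in dLG, 0.907, 1.51, 1.75 and 0.394 in VPM, and 0.288, 0, 0 and 0.725 in MGv. Every cortical library was above every thalamic one, with 88 to 247 counts in cortex and 0 to 54 in the thalamus. The fold change was -2.39 ± 0.77 SE (log2, edgeR adjusted p = 0.0652), and the call was lost when any cortical library was left out (adjusted p 0.120 to 0.161). *Sema3c*, another secreted member, was likewise without overlap, at 3.86 to 6.04 CPM in cortex and 0.0472 to 3.80 in the thalamus. It was not called in the main edgeR fit (adjusted p = 0.115) and was called as lower in DESeq2 (0.0686). Other edgeR fits also called it as lower, that of 4 groups (adjusted p = 0.0814) and that with the series of library numbers, given below, as a factor (0.0459).

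Among the receptors, *Nrp1* (ENSMUSG00000025810, GRCm38 chromosome 8, 128358604 to 128503363, plus strand) had the lowest p of the family. Its cortical libraries held 44.9, 37.9, 43.3 and 42.0 CPM, those of dLG 76.3, 80.1, 105, 74.0 and 92.1, of VPM 65.0, 75.9, 77.2 and 72.1, and of MGv 67.0, 122, 133 and 95.7. All 13 thalamic libraries were above all 4 cortical ones, which held for 1.67% of all genes tested, and *Nrp1* was 2.08-fold higher in the thalamus (log2 fold change 1.06 ± 0.18 SE, edgeR adjusted p = 0.000548). In the 3 thalamic libraries with the lowest *Slc17a6* (MGv b, MGv c, and VPM b, at 22.8, 30.1, and 32.2 CPM), *Nrp1* stood at 122, 133, and 75.9 CPM. *Slc17a6* was still lower in cortex, at 6.28 to 16.3 CPM, and the part of neurons in the level of *Nrp1* was not tested. *Nrp2* (ENSMUSG00000025969, GRCm38 chromosome 1, 62703285 to 62818695, plus strand), the partner of *Sema3f*, stood at 3.69, 1.67, 5.24 and 1.93 CPM in cortex. Its thalamic values were 14.8, 17.7, 21.7, 11.04 and 39.3 CPM in dLG, 8.93, 9.76, 8.05 and 4.68 in VPM, and 6.25, 10.9, 14.4 and 13.7 in MGv. *Nrp2* was 4.43-fold higher in the thalamus (log2 fold change 2.15 ± 0.48 SE, edgeR adjusted p = 0.00725), and 1 library, VPM d, lay within the cortical range.

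**Figure D2:**
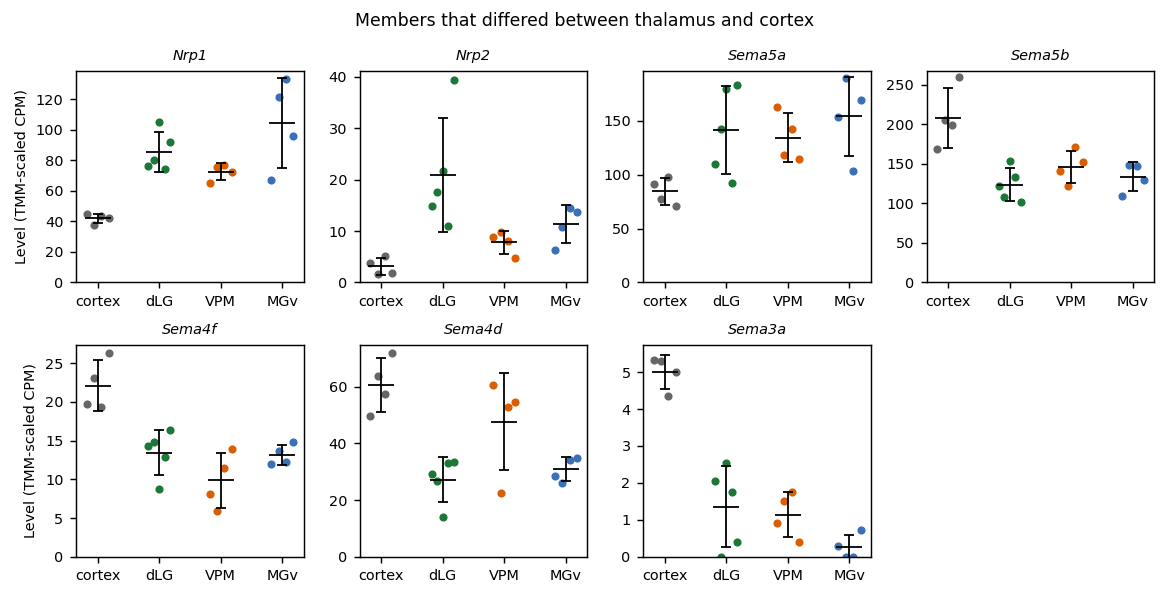
Level in TMM-scaled CPM of the 7 members called between thalamus and cortex, 1 point per library, with the mean and SD of each group (Ctx n = 4, dLG n = 5, VPM n = 4, MGv n = 4). *Nrp1*, *Sema4f*, and *Sema3a* show no overlap between the cortical and the 13 thalamic libraries, and 3 VPM libraries of *Sema4d* sit in the cortical range.

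The 3 nuclei differ among themselves, so each was also set against the cortex in a fit of all 4 groups. These 3 contrasts share the cortical libraries and are given side by side. In this fit 19.4% of genes were called for dLG (10.3% as higher and 9.04% as lower), 9% for VPM (3.56% and 5.44%), and 15.4% for MGv (7.87% and 7.51%). *Nrp1* was called as higher in each nucleus (log2 fold change 1.02 in dLG, 0.79 in VPM, and 1.31 in MGv), and so was *Nrp2* (2.73, 1.32, and 1.85). *Sema5a*, *Sema5b*, and *Sema4f* were also called in the same direction in each. *Plxna1* gave 0.81 in dLG and 0.97 in MGv, both called (edgeR adjusted p = 0.0209 and 0.0113), and -0.21 in VPM, which was not (adjusted p = 0.780). *Plxna4* (1.10, 0.10, and 1.25 in dLG, VPM, and MGv), *Plxnb1* (1.07, -0.32, and 1.05), and *Sema6d* (0.56, -0.13, and 0.43) were called as higher in dLG and in MGv. *Sema3d* was called as lower in dLG (-1.20) and MGv (-1.16) and stood at -0.06 in VPM. With the 3 nuclei averaged against cortex in this fit, *Sema3d* was called as lower (-0.81, edgeR adjusted p = 0.00631). In the main fit of thalamus against cortex it was not (adjusted p = 0.149). Against cortex, VPM was lower in *Plxnc1* (-0.56), *Plxnd1* (-1.75), *Sema6a* (-0.61), and *Sema6c* (-0.82), with edgeR adjusted p of 0.0359, 0.0384, 0.0105, and 0.0964. The difference between these contrasts is the comparison of the nuclei with each other.

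The second question was how the members differ between the sensory nuclei. Most plexins were lowest in VPM. Compared with dLG, VPM was lower in 6 of 9 plexins, *Nrp2*, *Sema6a*, and *Sema6d*, and higher in *Sema3d*. Compared with VPM, MGv was higher in 8 of 9 plexins, *Nrp1*, *Sema3b*, *Sema6a*, *Sema6c*, and *Sema6d*, and lower in *Sema3d*. Between MGv and dLG no member was called. These comparisons share libraries (those of VPM are in both of the first pair), so their values are only set side by side.

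In numbers, VPM against dLG gave 10 of 30 members called (9 lower and 1 higher in VPM), where 9.64% of the 17319 genes tested were called, 6.48% as lower and 3.16% as higher (edgeR, adjusted p under 0.1). MGv against VPM gave 14 of 30 (13 higher and 1 lower in MGv), where 11.4% of the genes were called, 6.89% as higher and 4.53% as lower. MGv against dLG gave 0 of 30 in edgeR and 0 in DESeq2, with 5 members at an unadjusted edgeR p under 0.05, where 0.647% of the genes were called. Between VPM and dLG the libraries did not overlap for 7 members lower in VPM and 1 higher, where this held for 4.88% and 5.7% of all genes tested. Between MGv and VPM they did not overlap for 13 members higher in MGv and 1 lower, where it held for 9.29% and 11.7%. The median log2 fold change of the members was -0.48 for VPM against dLG, 0.55 for MGv against VPM, and 0.14 for MGv against dLG, beside -0.01, 0.04, and 0.00 over all genes tested. For the plexins alone the medians were -1.03, 1.13, and 0.17. Of the 9 plexins, 7 had their lowest mean of the 4 groups in VPM, and 7 their highest in MGv.

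Among the receptors, the A-type plexins transmit class 3 signals with the neuropilins and also bind class 6 semaphorins. *Plxna1* (ENSMUSG00000030084, GRCm38 chromosome 6, 89316314 to 89362620, minus strand) was at 42.0, 40.8, 43.0 and 35.1 CPM in cortex, 48.8, 83.5, 99.3, 42.6 and 78.4 in dLG, 36.2, 30.3, 40.3 and 32.5 in VPM, and 64.2, 99.97, 58.3 and 92.9 in MGv. Every VPM library was below every dLG and MGv library, with VPM a and c in the cortical range and VPM b and d below it. The fold change was -1.05 ± 0.24 SE for VPM against dLG and 1.21 ± 0.25 SE for MGv against VPM (log2, edgeR adjusted p = 0.0301 and 0.0143). Of the exonic length of *Plxna1*, 10.7% is also covered by an antisense gene, and whether reads were counted by strand is not stated, so reads of the pair cannot be told apart over that stretch. *Plxna3* followed the same order, with 46.2, 46.8, 50.5, 28.7 and 66.0 CPM in dLG, 21.8, 22.3, 27.3 and 18.7 in VPM, and 33.7, 58.4, 52.3 and 48.1 in MGv, and cortical values of 22.6, 25.5, 32.1 and 45.2. VPM was again below all libraries of the other 2 nuclei, by 2.16-fold against dLG (edgeR adjusted p = 0.0177) and 2.19-fold against MGv (adjusted p = 0.0141).

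*Plxna4* was at 28.7, 41.8, 75.5, 21.5 and 69.8 CPM in dLG, 22.3, 33.5, 18.5 and 20.5 in VPM, 42.1, 75.7, 50.4 and 41.9 in MGv, and 19.7, 25.9, 22.7 and 20.1 in cortex. Its dLG libraries were split, with a and d in the VPM range and the other 3 above it, and MGv was above VPM throughout. The log2 fold change was -1.03 ± 0.34 SE for VPM against dLG (edgeR adjusted p = 0.0958) and 1.18 ± 0.36 SE for MGv against VPM (adjusted p = 0.0658). *Plxna2* had 14.1 to 39.0 CPM in dLG, 14.8, 18.9, 16.2 and 19.2 in VPM, and 33.6, 45.6, 27.7 and 30.4 in MGv. MGv was above VPM in every library (1.03 ± 0.27 SE, log2, edgeR adjusted p = 0.0409), and VPM against dLG was not called (-0.62 ± 0.26 SE, adjusted p = 0.175).

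The B-type plexins are receptors of class 4 semaphorins. *Plxnb1* (ENSMUSG00000053646, GRCm38 chromosome 9, 109095389 to 109119917, plus strand), the most abundant plexin per kb, held 71.7, 65.9, 114 and 82.1 CPM in cortex, 115, 199.9, 228, 79.5 and 251 in dLG, 56.7, 83.0, 70.3 and 57.8 in VPM, and 128, 235, 149.8 and 178 in MGv. VPM was below all MGv libraries and below dLG except that VPM b was above dLG d. It was 2.67-fold lower than dLG (log2 fold change -1.42 ± 0.30 SE, edgeR adjusted p = 0.0207) and MGv was 2.65-fold higher than VPM (1.40 ± 0.31 SE, adjusted p = 0.0185). *Plxnb2* stood at 65.5, 77.3, 102 and 144 CPM in cortex, 75.3, 122, 105, 88.2 and 138 in dLG, 52.9, 53.5, 75.0 and 56.8 in VPM, and 82.9, 168, 139.7 and 118 in MGv. All VPM libraries were below all of dLG (-0.86 ± 0.22 SE, log2, edgeR adjusted p = 0.0384) and of MGv (1.13 ± 0.23 SE for MGv against VPM, adjusted p = 0.0113).

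*Plxnb3*, a receptor of *Sema5a*, was the plexin that did not follow this order. It had 38.5, 29.9, 42.1, 37.2 and 56.3 CPM in dLG, 57.4, 24.9, 49.8 and 55.6 in VPM, and 21.2, 28.8, 29.0 and 34.9 in MGv, so that its highest mean was in VPM. It was not called in any comparison (MGv against VPM -0.68 ± 0.25 SE, log2, edgeR adjusted p = 0.124, and 0.0747 in DESeq2). The low VPM library was again b, the one with the lowest oligodendrocyte lineage sum among the VPM libraries. Without VPM b the adjusted p of *Plxnb3* for MGv against VPM was 0.0292.

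*Plxnc1* binds *Sema7a* and *Plxnd1* binds *Sema3e*. *Plxnc1* was at 31.5, 39.0, 32.3, 30.7 and 35.9 CPM in dLG, 23.1, 24.4, 29.3 and 21.7 in VPM, and 40.8, 48.9, 36.7 and 45.9 in MGv, and VPM lay below all libraries of both. The log2 fold change was -0.49 ± 0.15 SE for VPM against dLG (edgeR adjusted p = 0.0698) and 0.84 ± 0.16 SE for MGv against VPM (adjusted p = 0.00747). *Plxnd1* was scarce, at 3.46, 2.20, 3.16, 2.83 and 1.21 CPM in dLG, 1.62, 1.12, 0.350 and 1.23 in VPM, and 3.94, 3.37, 9.07 and 4.85 in MGv, or 7 to 191 counts per library. MGv was 5.01-fold above VPM (2.33 ± 0.52 SE, log2, edgeR adjusted p = 0.0201). The difference between VPM and dLG was not called in edgeR (-1.27 ± 0.49 SE, adjusted p = 0.142) and was called in DESeq2 (-1.30, adjusted p = 0.0466). In all, the 8 plexins called between MGv and VPM showed no overlap of these 2 groups, in a direction in which 9.29% of all genes tested had none.

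**Figure D3:**
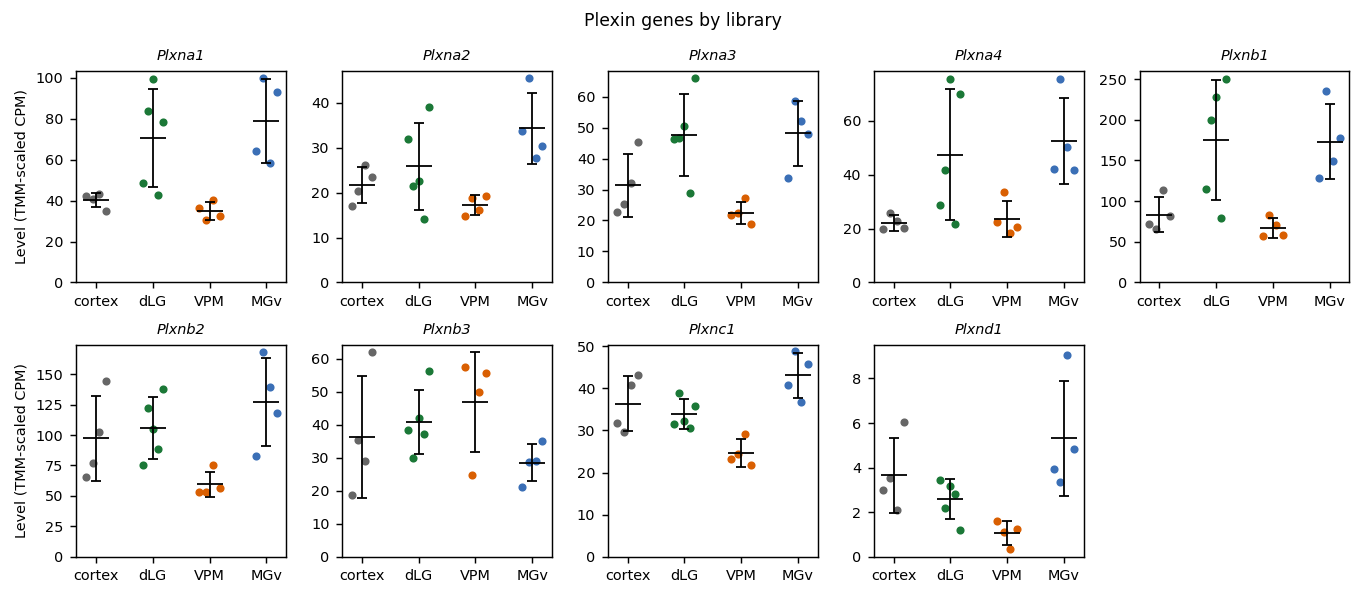
Level of the 9 plexins in TMM-scaled CPM, 1 point per library, with the mean and SD of each group (Ctx n = 4, dLG n = 5, VPM n = 4, MGv n = 4). In 8 of the 9 panels the MGv points lie above all VPM points, and *Plxnb3* is the exception.

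Both neuropilins were called once between the nuclei. *Nrp2* was 2.73-fold lower in VPM than in dLG with no overlap (-1.45 ± 0.37 SE, log2, edgeR adjusted p = 0.0419), at 4.68 to 9.76 CPM against 11.04 to 39.3. *Nrp1* was higher in MGv than in VPM (0.56 ± 0.19 SE, log2, edgeR adjusted p = 0.0907), with 1 MGv library, a, inside the VPM range.

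Among the ligands, *Sema6a* and *Sema6d*, transmembrane semaphorins that bind A-type plexins, were lowest in VPM. *Sema6a* was at 199, 215, 216 and 209 CPM in cortex, 189, 253, 334, 211 and 228 in dLG, 143, 127, 136 and 145 in VPM, and 182, 213, 204 and 184 in MGv. VPM lay below the other 13 libraries without overlap, 1.80-fold below dLG (-0.85 ± 0.15 SE, log2, edgeR adjusted p = 0.00806) and 1.46-fold below MGv (0.55 ± 0.15 SE for MGv against VPM, adjusted p = 0.04998). *Sema6d* had 172, 248, 289, 164 and 246 CPM in dLG, 118, 154, 152 and 129.6 in VPM, and 195, 218, 222 and 183 in MGv, with cortex at 136 to 165 CPM. The VPM libraries were below all of the other 2 nuclei (-0.72 ± 0.17 SE for VPM against dLG and 0.60 ± 0.18 SE for MGv against VPM, log2, edgeR adjusted p = 0.0308 and 0.0591). *Sema6c*, of the same class, was at 10.2 to 15.7 CPM in VPM and 19.95 to 28.4 in MGv without overlap (0.91 ± 0.28 SE, log2, edgeR adjusted p = 0.0694). For VPM against dLG, *Sema6c* was not called in edgeR (adjusted p = 0.149) and was called as lower in DESeq2 (adjusted p = 0.0751). *Sema6b*, the remaining one, was called in no comparison.

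*Sema3d*, the secreted member with the highest level per kb, had the opposite order. It was at 57.6, 64.7, 43.8 and 61.8 CPM in cortex, 41.0, 24.2, 21.1, 23.8 and 14.3 in dLG, 55.3, 46.7, 64.7 and 51.3 in VPM, and 25.4, 24.7, 19.5 and 32.2 in MGv. Every VPM library was above every dLG and MGv library and within or close to the cortical range. *Sema3d* was 2.15-fold higher in VPM than in dLG (1.10 ± 0.24 SE, log2, edgeR adjusted p = 0.0232) and 2.09-fold lower in MGv than in VPM (-1.06 ± 0.26 SE, adjusted p = 0.0279). *Sema3b*, a secreted ligand of *Nrp1* and *Nrp2*, was at 2.05, 1.28, 1.10 and 1.72 CPM in VPM and 2.69, 4.504, 11.3 and 6.39 in MGv, which did not overlap (2.05 ± 0.57 SE, log2, edgeR adjusted p = 0.0486). *Sema4a*, the fifth member by level per kb, was at 71.8 to 102 CPM in cortex, 39.6 to 69.6 in dLG, 64.4 to 79.4 in VPM, and 64.3 to 88.8 in MGv. It was not called in the 4 comparisons, though it was in dLG against cortex in the fit of 4 groups (-0.52, log2, edgeR adjusted p = 0.0307).

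**Figure D4:**
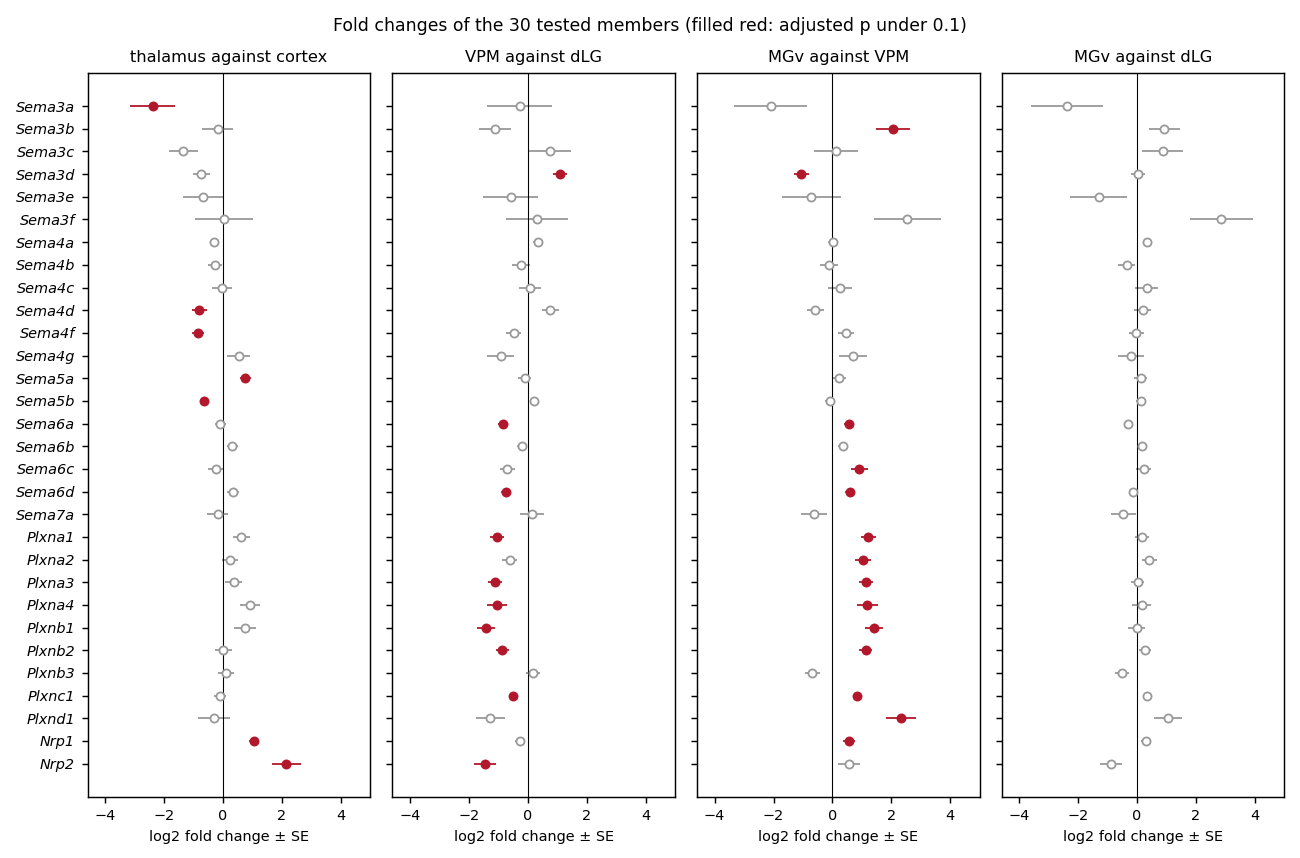
Log2 fold change ± SE (edgeR) of the 30 tested members in the 4 comparisons, with filled red points at an adjusted p under 0.1. Points of the plexins lie left of 0 in VPM against dLG and right of 0 in MGv against VPM except for *Plxnb3*, and no point is filled in MGv against dLG.

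The other members tested were called in none of the 4 comparisons. Besides *Plxnb3* and *Sema4a* these were *Sema3c*, *Sema3e*, *Sema3f*, *Sema4b*, *Sema4c*, *Sema4g*, *Sema6b*, and *Sema7a*, 10 members in all. *Sema3f*, the ligand of *Nrp2*, was at 2.10, 1.10, 0, 1.49 and 0 CPM in dLG, 1.05, 0, 2.60 and 1.13 in VPM, and 9.09, 2.74, 5.03 and 10.51 in MGv, and its MGv libraries lay above the dLG and VPM ones. Against dLG, 1.24% of all genes tested were higher in MGv without overlap. It had 0 to 232 counts per library and was not called (2.86 ± 1.07 SE for MGv against dLG, log2, edgeR adjusted p = 0.581). *Sema3e* spread from 0 to 8.67 CPM within dLG alone. *Sema4b*, *Sema4c*, *Sema4g*, *Sema6b*, and *Sema7a* had group means of 3.83 to 49.3 CPM and log2 fold changes of -0.92 to 0.71 over the 4 comparisons.

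Several of the calls between the nuclei were lost when 1 library was left out, while the direction of the difference stayed. For VPM against dLG, *Plxna1*, *Plxna3*, *Plxnb1*, *Sema3d*, and *Sema6a* kept their calls when any 1 of the 13 libraries was left out. *Nrp2* lost its call without VPM a, c, or d (edgeR adjusted p 0.110 to 0.132, log2 fold change -1.25 to -1.51 against -1.45). That of *Plxnb2* was lost without VPM a or d (0.113 to 0.133, log2 fold change -0.80 to -0.83 against -0.86). The call of *Sema6d* was lost without VPM a or d (0.105 to 0.116, log2 fold change -0.65 to -0.68 against -0.72). That of *Plxnc1* was lost without dLG b or e, and without MGv d, and without VPM a, b, c, or d (0.110 to 0.199, log2 fold change -0.42 to -0.57 against -0.49). The call of *Plxna4* was lost without dLG b, c, or e, and without MGv a, c, or d, and without VPM a, c, or d (0.111 to 0.248, log2 fold change -0.81 to -1.07 against -1.03). Without VPM a or without VPM d, 4 members in place of 9 were lower in VPM.

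For MGv against VPM, *Plxna1*, *Plxna3*, *Plxnb1*, *Plxnb2*, *Plxnc1*, *Plxnd1*, and *Sema3d* kept their calls without any 1 library. *Plxna2* lost its call without MGv b, and without VPM a or c (edgeR adjusted p 0.121 to 0.129, log2 fold change 0.84 to 0.97 against 1.03). The call of *Plxna4* was lost without MGv b or c, and without VPM a, c, or d (0.106 to 0.187, log2 fold change 0.94 to 1.18 against 1.18). That of *Sema6d* was lost without MGv b or c, and without VPM a, c, or d (0.121 to 0.176, log2 fold change 0.53 to 0.63 against 0.60). The call of *Sema3b* was lost without MGv c or d, and without VPM a, b, c, or d (0.101 to 0.146, log2 fold change 1.56 to 2.21 against 2.05). That of *Sema6a* was lost without MGv b, c, or d, and without VPM a, b, c, or d (0.107 to 0.145, log2 fold change 0.48 to 0.56 against 0.55). The call of *Sema6c* was lost without MGv b, c, or d, and without VPM a, b, c, or d (0.108 to 0.181, log2 fold change 0.77 to 1.00 against 0.91). That of *Nrp1* was lost without dLG a or b, and without MGv b, c, or d, and without VPM a, b, c, or d (0.115 to 0.241, log2 fold change 0.40 to 0.57 against 0.56). The count of members higher in MGv was 13 and fell to 7 without MGv b, MGv c, or VPM d and to 6 without VPM a or VPM c. Without VPM b, 3 members were lower in MGv than in VPM, with *Sema4d* and *Plxnb3* beside *Sema3d*.

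The library numbers in the labels fall into 3 series. Series A holds all 4 MGv libraries and 2 of each other group, series C holds 2 each of cortex, dLG, and VPM, and series B is dLG c alone. What the series stand for is not stated. In dLG c, 17749 genes had any count, against 21052 to 23365 in the other libraries. Its levels of *Sema6a* (334 CPM), *Sema6d* (289 CPM), and *Sema6c* (34.8 CPM) were the highest of all libraries. Those of *Sema4d* (13.9 CPM) and *Sema4c* (4.16 CPM) were the lowest. Within series A, all 14 members called between MGv and VPM kept their direction and 10 were called, *Plxnb1* among them with 1.47 ± 0.28 SE (log2, edgeR adjusted p = 0.0223). All 10 members called between VPM and dLG kept their direction in series A and in series C, with *Plxnb1* at -1.34 and -1.26 and *Sema3d* at 0.79 and 1.42 (log2 fold change in A and C). With 2 libraries against 2, none of these 10 was called in either series. All 7 members called between thalamus and cortex also kept their direction in both series, with *Nrp1* at 1.09 and 0.91, and 3 were called in series A and 0 in series C (edgeR).

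*Gfap* and some markers of other cells differed between VPM and the other nuclei. *Gfap*, the gene that the transgene is named for, was at 8.98 to 19.2 CPM in VPM, 450.0 to 537 in cortex, 78.2 to 1308 in dLG, and 36.1 to 5519 in MGv. The 6 microglia markers summed to 6.68 to 11.2 CPM in VPM, 10.9 to 91.8 in dLG, and 11.8 to 54.5 in MGv. In cortex they summed to 10.8 to 19.7 CPM, near the VPM range. Of the 6, 3 (*Cx3cr1*, *Csf1r*, and *Tmem119*) were called as lower in VPM than in dLG and than in MGv. The 7 oligodendrocyte lineage markers summed to 2480 to 5808 CPM in VPM, 2606 to 3863 in dLG, and 2307 to 3246 in MGv. Of the 7, 5 were called as lower in MGv than in VPM and 1 as higher. Between VPM and dLG only 1 of the 7, *Mobp*, was called, as higher in VPM (edgeR). The 6 endothelial markers summed to 3.01 to 6.02 CPM in VPM, 4.16 to 45.6 in dLG, and 2.54 to 12.2 in MGv. Of them, *Cdh5* was at 0 in all MGv libraries and at 0 to 0.246 CPM in VPM. The 4 endothelial markers tested all had a positive log2 fold change for MGv against VPM, and 0 were called (edgeR). The sums of neuron markers overlapped between all nuclei. Single libraries of the other nuclei in or near the VPM range of a marker differed in their plexin levels. MGv b, with 11.8 CPM of microglia markers, had 99.97 CPM of *Plxna1* and 235 of *Plxnb1*. In dLG b, with 10.9 CPM, they stood at 83.5 and 199.9 CPM. MGv a, with the lowest *Gfap* outside VPM at 36.1 CPM, had 64.2 CPM of *Plxna1* and 128 of *Plxnb1*. VPM b, whose oligodendrocyte lineage sum of 2480 CPM was in the range of MGv, had 30.3 CPM of *Plxna1* and 83.0 of *Plxnb1*. In dLG d, the oligodendrocyte lineage sum of 3863 CPM was the highest of dLG and MGv. Like all dLG sums, it lay within the VPM range. *Plxna1* and *Plxnb1* had their lowest dLG levels there, 42.6 and 79.5 CPM, the second of which was below that of VPM b. In dLG e, with the next highest sum of dLG at 3268 CPM, *Plxna1* and *Plxnb1* stood at 78.4 and 251 CPM. The part of these markers in the differences between the nuclei was not tested.

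**Figure D5:**
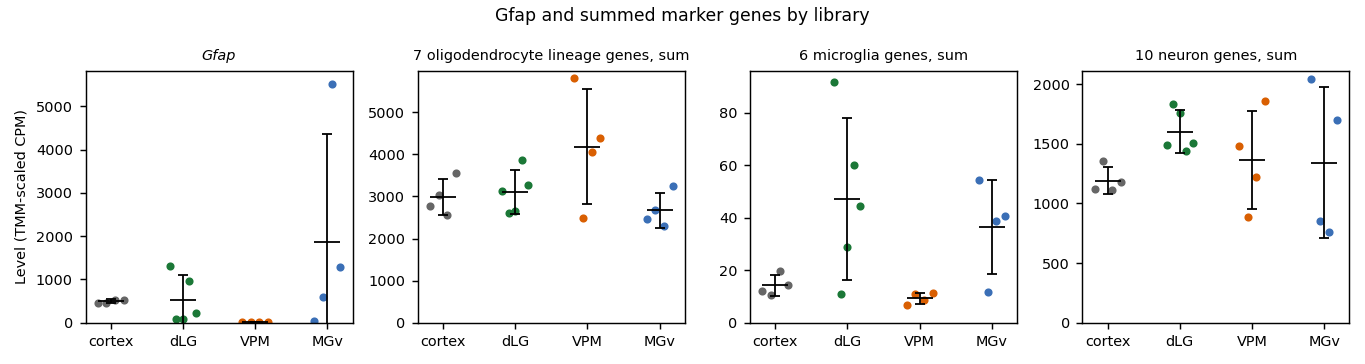
*Gfap* and the summed levels of 3 marker lists in TMM-scaled CPM, 1 point per library, with the mean and SD of each group on an axis that starts at 0 (Ctx n = 4, dLG n = 5, VPM n = 4, MGv n = 4). *Gfap* lies at 8.98 to 19.2 CPM in VPM and at 36.1 CPM or above in all other libraries, and the VPM library with the lowest oligodendrocyte lineage sum is replicate b.

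Partners of the family were read from 2 lists. The first held 18 co-receptors and other ligands, 17 of them among the genes of the tables, and the second 27 cytoplasmic partners. Between thalamus and cortex, 3 of 16 tested co-receptors and ligands were lower in the thalamus and none was higher, where 5.93% of all genes tested were lower and 5.45% higher. *Vegfa*, the angiogenic ligand that neuropilins also bind, was at 458, 472, 359 and 414 CPM in cortex and 123 to 272 CPM in the thalamus (-1.12 ± 0.16 SE, log2, edgeR adjusted p = 8.56e-05), without overlap. *Met*, a receptor tyrosine kinase that couples to plexins, was at 4.47 to 6.53 CPM in cortex and 0 to 1.18 CPM in the thalamus (-4.49 ± 0.96 SE, adjusted p = 0.00475), and the third was the integrin *Itga1* (-1.32 ± 0.37 SE, adjusted p = 0.0335). Of the 27 cytoplasmic partners, 2 were higher and 4 lower, or 6 called, against 11.4% called over all genes. *Dpysl3*, a collapsin response mediator (0.73 ± 0.19 SE, adjusted p = 0.0220), and the kinase *Cdk5* (0.30 ± 0.09 SE, adjusted p = 0.0573) were the ones that were higher. *Mical1*, an oxidase of actin (-0.77 ± 0.20 SE, adjusted p = 0.0162), was among those that were lower, with the GTPases *Rhod* and *Rnd1*, and with *Ranbp9*.

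Between the nuclei, *Erbb2* and *L1cam*, which form complexes with B-type plexins and with *Nrp1*, respectively, had their lowest mean of the 3 nuclei in VPM. *Erbb2*, a receptor tyrosine kinase, was at 19.0, 23.8, 32.8, 15.4 and 21.4 CPM in dLG, 10.2, 10.8, 11.96 and 8.18 in VPM, and 18.5, 31.8, 33.4 and 27.4 in MGv, with VPM below all libraries of the others (-1.16 ± 0.24 SE for VPM against dLG and 1.47 ± 0.25 SE for MGv against VPM, log2, edgeR adjusted p = 0.0192 and 0.00498). *L1cam*, an adhesion molecule of axons, was at 24.5 to 54.6 CPM in dLG, 7.64 to 21.6 in VPM, and 18.1 to 48.3 in MGv (log2 -1.34 and 1.07, edgeR adjusted p = 0.0372 and 0.0786). *Vegfa* went the other way, with 243 to 272 CPM in VPM against 123 to 209 in dLG and 156 to 206 in MGv. In all, 3 of 15 genes of the first list were called for VPM against dLG (2 lower and 1 higher) and 4 for MGv against VPM (3 higher, with *Pgf* as the third, and 1 lower), against 9.64% and 11.4% of all genes tested.

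Of the cytoplasmic partners, *Dpysl5*, another collapsin response mediator, was at 43.8, 64.9, 73.5, 41.6 and 39.8 CPM in dLG, 19.6, 11.6, 20.3 and 29.7 in VPM, and 61.0, 36.2, 43.9 and 80.9 in MGv. All VPM libraries lay below the others (-1.41 ± 0.29 SE for VPM against dLG and 1.49 ± 0.30 SE for MGv against VPM, log2, edgeR adjusted p = 0.0187 and 0.0120). The kinase *Fyn*, also a myelination kinase of oligodendrocytes, was higher in VPM than in dLG (0.62 ± 0.20 SE) and lower in MGv than in VPM (-0.82 ± 0.21 SE, log2, edgeR adjusted p = 0.0898 and 0.0379), and its lowest VPM library was b, at 1063 CPM against 1519 to 1805. Besides these, *Rras* was lower in VPM than in dLG, *Mical3* and *Limk1* were higher in MGv than in VPM, and *Rap1b* was lower. Over the 27 genes this makes 3 called for VPM against dLG, a share near the 9.64% of all genes, and 5 for MGv against VPM, where 11.4% of all genes were called. For MGv against dLG neither list held a call in edgeR (1 and 2 genes at an unadjusted p under 0.05).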

How the data were processed

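RNA was sequenced from FACS-purified astrocytes in 17 libraries of 4 pooled brains each. The authors deposited raw gene counts per library. They mapped reads with STAR 2.7.0d to GRCm38.p6 and assigned them to Ensembl genes with featureCounts (Subread 1.6.4), after FastQC 0.11.7 and with SAMtools 1.9. Whether counting used strand is not given in the sources used here. Libraries were grouped by their labels, and replicate letters follow the labels. Differences were tested with the quasi-likelihood test of edgeR 4.0.16 (R 4.3.3) on these counts, with TMM scaling and the default filter on low counts, at a Benjamini-Hochberg adjusted p under 0.1. The SE was the size of the log2 fold change divided by the square root of F. Region (13 thalamic against 4 cortical libraries) and nuclei (3 groups) were separate fits. These p-values measure the spread between libraries of pooled brains. Alternatives were DESeq2 1.42.0, other filters, a stricter threshold, a replicate block, the library number series, and each library left out. Floors of 3 counts cover counting error only. Simulated counts with known changes were used to test the scripts. Symbols and lengths came from a GRCm38 annotation (GENCODE M21), with 8 genes left without a symbol, and promoters from RefSeq. Per-library values are given for members called in a comparison, and the others by ranges, except that the top 5 members by level per kb were also described and that *Plxnb3*, *Sema3c*, *Sema3f*, and *Sema3e* were singled out after their values were seen. Of the partner lists, at most the 6 genes with the lowest p per comparison were named. The members, gene lists, and tests were chosen with earlier results of these data known.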

Additional observations from a re-analysis of the deposited data

Results flagged for a closer look

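In groups of 4 or 5 libraries, single libraries that stood apart from the rest were looked for with Dixon's test on each member. Of 123 groups, 5 held one, where chance gives about 5% if values are normally distributed. *Sema3b*, a secreted ligand, stood at 6.58 CPM in cortex c, with the next library at 3.52, and at 8.03 CPM in dLG c, with the next at 2.54. The others were *Sema3g*, at 0.241 CPM in cortex d, 0.504 in dLG e, and 0.250 in VPM c, with 0 in all other libraries of these groups. These are 5, 10, and 5 counts. With all other libraries of the group at 0, the test flags any value over 3 counts, so the *Sema3g* flags were fixed in advance.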

How the results depend on the processing

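The 31 differences of single members called in a comparison were recomputed 746 times, of which 619 kept their direction and call, 127 kept the direction without the call, and 0 turned. Counts of members called moved as follows. Higher in thalamus (3): 1 in series A, 0 in series C, 5 in a fit of 4 groups, 8 with dLG alone, and 7 with MGv alone. Lower in thalamus (4): 2 at an adjusted p under 0.05, 2 in series A, and 0 in series C. Higher in VPM than dLG (1): 2 with DESeq2, 2 with at least 10 counts in every library, 2 in a fit of 4 groups, and 0 in series A and in series C. Lower in VPM than dLG (9): 0 in series A and in series C. Lower in MGv than VPM (1): 2 with DESeq2, 2 with at least 10 counts in every library, and 3 in series A. With 1 library left out, the ranges were 3 to 4 and 2 to 6 (higher and lower in thalamus, 2 without cortex b, c, or d), 1 to 2 and 4 to 11 (higher and lower in VPM than dLG), 0 to 0 for MGv against dLG, and 6 to 14 and 1 to 3 (higher and lower in MGv than VPM).

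The labels do not say whether the replicate letters pair the libraries, and the main fits did not treat them as pairs. Of 24 pairs with the same letter, 4 correlated over 0.1 in their deviations from the group means (r from -0.157 to 0.219). Such correlations cannot decide the question, because the spread between single pools can hide a shared origin. A fit with the replicate letter as a block gave 3 higher and 3 lower in thalamus, 1 and 7 in VPM against dLG, 0 and 0 in MGv against dLG, and 13 and 2 in MGv against VPM. The cause of these moves was not tested. Within the series, fewer libraries were compared. Low counts limit *Sema3g* most, at 0 to 10 counts per library, and *Sema3a*, *Sema3e*, and *Sema3f* were at 0 and *Sema3c* at 1 count in single libraries. Of these, dLG c had 0 counts of *Sema3e* and *Sema3f* although its total of 21371571 counts was the highest of dLG. It had the fewest genes with any count, 17749.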
